A study of Mus musculus with 2 samples.

Results

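Eomes, Tbx21, Tcf7, Lef1, Zeb2, Id2 and Zbtb16, transcription factor genes known for the development of lymphocyte lineages, were followed through the lymphocytes of the mouse adrenal gland. They were taken by name, 7 of the 32285 genes in the files, and all 7 were measured in both libraries. Live CD45+ cells, that is, leukocytes, had been sorted from adrenal glands of 7-week-old C57Bl/6 mice, and 1 droplet library was made from female mice and 1 from male mice (Chromium Single Cell 3′ chemistry). The mice carried no engineered allele and received no agent that the labels name, and the number of animals behind each library is not given in the sources used here. Because each sex is a single library, nothing is replicated and no p-value is given, and sex, animals and library cannot be told apart. Each level is the count of UMIs (tagged RNA molecules) of a gene over all UMIs of the same cells, scaled to 1000000 UMIs (CPM), with an exact Poisson 95% interval, and intervals on shares of cells and on ratios are likewise exact. All of these cover counting error only.

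T-bet, encoded by Tbx21, and the related T-box factor Eomesodermin, encoded by Eomes, drive the cytotoxic and interferon-γ programs of NK cells and of effector T cells. TCF-1 (Tcf7) and LEF-1 (Lef1) are HMG-box factors of T cell development that stay high in resting T cells. ZEB2 is a zinc finger factor of late NK and effector T cell maturation that macrophages also make, ID2 blocks E proteins and is needed for innate lymphoid cells and NK cells, and PLZF (Zbtb16) is the factor of innate-like T cells and of innate lymphoid precursors. In many mouse tissues conventional NK cells carry both T-box factors, while type 1 innate lymphoid cells (ILC1) carry T-bet with little Eomes.

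Cells were gated on surface receptor genes, none of which is among the 7 factors. In the female and the male library the gates held 172 and 91 CD8 T cells, 60 and 34 CD4 T cells, 60 and 41 gamma delta gated T cells, 298 and 136 conventional NK cells, 191 and 82 ILC1-like NK cells, 60 and 39 innate lymphoid cells (ILCs) and 490 and 258 B cells, out of 3694 and 2449 cells kept, whose median depth was 3489.5 and 3008 UMIs. Markers not used in the gate of the class they check were then read as summed levels. Icos, on the CD4 T cell list, is also a gene of the ILC gate. A list of 8 B cell genes came to 54209 and 42559 CPM in B cells and to at most 308 CPM in any other class, and a list of 4 CD4 T cell genes came to 354 and 260 CPM in CD4 T cells against 32.3 and 43.5 CPM in CD8 T cells. The list of 4 CD8 T cell genes did not single out its class, with 4902 and 7379 CPM in CD8 T cells against 20247 and 16799 CPM in conventional NK cells. A list of 5 conventional NK genes came to 13879 and 11740 CPM in conventional NK cells against 2939 and 1209 CPM in ILC1-like NK cells, and 4 ILC1 genes to 1406 and 1890 against 3933 and 3636 CPM. For ILCs, 5 of 7 genes of type 2 cells had a UMI, with 1252 and 1422 CPM in all, Il13 at 0 in both libraries and Il5 at 0 in the female one. The gamma delta gate fared worst, since 5 T cell genes came to only 237 and 305 CPM there against 794 and 802 CPM in CD8 T cells, while the 2 genes Gzma and Prf1 stood at 23.6% and 18.6% of their level in conventional NK cells. A list of 5 NK genes came to 18891 and 12412 CPM in the gamma delta gate. It came to 34123 and 28538 CPM in conventional NK cells and to 14659 and 10485 CPM in ILC1-like NK cells. Of 5 further gamma delta T cell genes, 2 had a UMI in the female library (12.6 CPM in all, with Sox13, Blk and Il17a at 0) and 5 in the male library (220 CPM). CD8 and CD4 T cells had none of them, but B cells had 138 and 141 CPM. In the male library, 35 of 41 gamma delta gated cells had Il2rb or Cd27 and no UMI of Il1r1, Il23r, Ccr6 or Cd163l1. These 35 cells had 0 UMIs of the list, which was fixed in advance for Cd163l1, 1 of its 5 genes. All UMIs of the list thus lay in the few other cells of that gate. Cells of this gate are therefore called gamma delta gated cells.

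On mouse genome build GRCm38 (mm10; positions from GENCODE M21), Eomes (ENSMUSG00000032446) lies on the plus strand at chr9:118478212-118486132, Lef1 (ENSMUSG00000027985) on the plus strand at chr3:131110471-131224356 and Tbx21 (ENSMUSG00000001444) on the minus strand at chr11:97098071-97115331. The minus strand also holds Tcf7 (ENSMUSG00000000782) at chr11:52252371-52283014, Zeb2 (ENSMUSG00000026872) at chr2:44983632-45117395, Id2 (ENSMUSG00000020644) at chr12:25093799-25097140 and Zbtb16 (ENSMUSG00000066687) at chr9:48654297-48836222. The annotated genes Gm26551, Gm42449 and Mir5129 overlap Tcf7, Lef1 and Zeb2 on the same strand, so reads from the shared stretches are uncertain. Eomes and Zeb2, whose levels divided the NK cells, and Tbx21, whose level did so far less, are shown by the 250 bases before their start, from RefSeq (GRCm38.p6), written 5′ to 3′ on the gene's own strand. The Eomes window is chr9:118477939-118478188 (plus strand), the Tbx21 window chr11:97115332-97115581 (minus strand), and the Zeb2 window, before the first of 4 starts listed, chr2:45117443-45117692 (minus strand). The bases after the start were found in 1 transcript each for Eomes and Tbx21 and in 0 for Zeb2, so that check did not bear out the Zeb2 start.
Eomes: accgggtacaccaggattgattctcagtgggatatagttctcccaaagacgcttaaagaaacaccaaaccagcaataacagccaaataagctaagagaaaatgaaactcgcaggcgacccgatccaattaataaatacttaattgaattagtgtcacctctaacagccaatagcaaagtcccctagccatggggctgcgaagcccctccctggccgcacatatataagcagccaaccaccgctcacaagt
Tbx21: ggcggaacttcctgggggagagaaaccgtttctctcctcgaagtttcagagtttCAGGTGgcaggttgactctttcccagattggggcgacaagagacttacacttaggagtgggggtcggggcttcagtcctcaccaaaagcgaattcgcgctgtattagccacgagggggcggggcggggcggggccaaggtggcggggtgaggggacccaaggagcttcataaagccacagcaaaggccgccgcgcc
Zeb2: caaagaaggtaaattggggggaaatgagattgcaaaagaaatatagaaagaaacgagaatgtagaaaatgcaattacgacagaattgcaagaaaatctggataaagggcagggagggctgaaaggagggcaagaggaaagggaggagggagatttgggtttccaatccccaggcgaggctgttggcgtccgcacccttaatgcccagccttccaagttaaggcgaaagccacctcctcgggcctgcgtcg
Capitals mark the only match to 6 motifs searched on both strands, which were CTTTGA for TCF and LEF factors, GTGTGA for T-box factors, TGTGGT for RUNX, CGGAAG for ETS factors, CAGGTG for ZEB and AGATAA for GATA factors. The CAGGTG in the Tbx21 window is a match of letters, which 17.2% of 32851 promoter windows of the same length also hold. The other motifs matched 13.8%, 12.3%, 14%, 13.6% and 9.99% of windows for TCF and LEF, T-box, RUNX, ETS and GATA. Of the 6 factors with a listed window (Zbtb16 had none), Id2 had 1 match, to CGGAAG, and the Tcf7 and Lef1 windows had no match. The Id2 window, chr12:25096093-25096342, lay inside the annotated Id2 gene. Those of Tcf7 and Lef1 were taken before the first of 2 and of 4 starts listed. The start check found 0 transcripts for Lef1, so it did not bear out that start either.

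Eomes was at its highest in conventional NK cells, with 249 CPM (95% interval 220 to 280) in the female library and 279 CPM (239 to 325) in the male one. It was found in 54.4% and 61.8% of these cells. The gamma delta gated cells followed with 85.3 CPM (56.2 to 124) and 94.9 CPM (57.1 to 148), but 5 cells held 70.4% and 89.5% of those UMIs. CD8 T cells had 35.9 and 38.7 CPM, and ILC1-like NK cells 16.3 and 16.2 CPM. No UMI of Eomes was seen in CD4 T cells or ILCs, which allows up to 12.3 and 23.0 CPM in CD4 T cells and up to 19.6 and 23.2 CPM in ILCs. In B cells, the class that served as background for the T and NK factors, Eomes had 1 UMI in 490 cells of the female library and 0 in the male library. Conventional NK cells thus stood apart from their neighbour in the order in both libraries, and the gamma delta gated cells stood apart from CD8 T cells in the female library alone.

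Tbx21 took a different order. Conventional NK cells had 147 CPM (126 to 172) and 149 CPM (120 to 183), ILC1-like NK cells 109 CPM (88.3 to 134) and 83.5 CPM (58.5 to 116), and gamma delta gated cells 91.7 CPM (61.4 to 132) and 74.9 CPM (41.9 to 124). The NK groups had intervals apart in the male library and overlapping ones in the female library. CD8 T cells, with 19.1 and 19.3 CPM, and CD4 T cells, with 24.7 and 15.3 CPM, did not differ beyond their intervals. ILCs had 0 UMIs in both libraries, and B cells had 1.83 and 0 CPM. The share of cells with Tbx21 was 39.9% and 43.4% in conventional NK cells, 35.6% and 34.1% in ILC1-like NK cells, and 0.612% and 0% in B cells, whose median depth was 2155 and 1779.5 UMIs against 3326.5 and 4084.5 in conventional NK cells. With every cell thinned to 1000 UMIs, the shares in the NK groups were 11.6% and 13.3% against 8.99% and 12.2%.

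**Figure D1:**
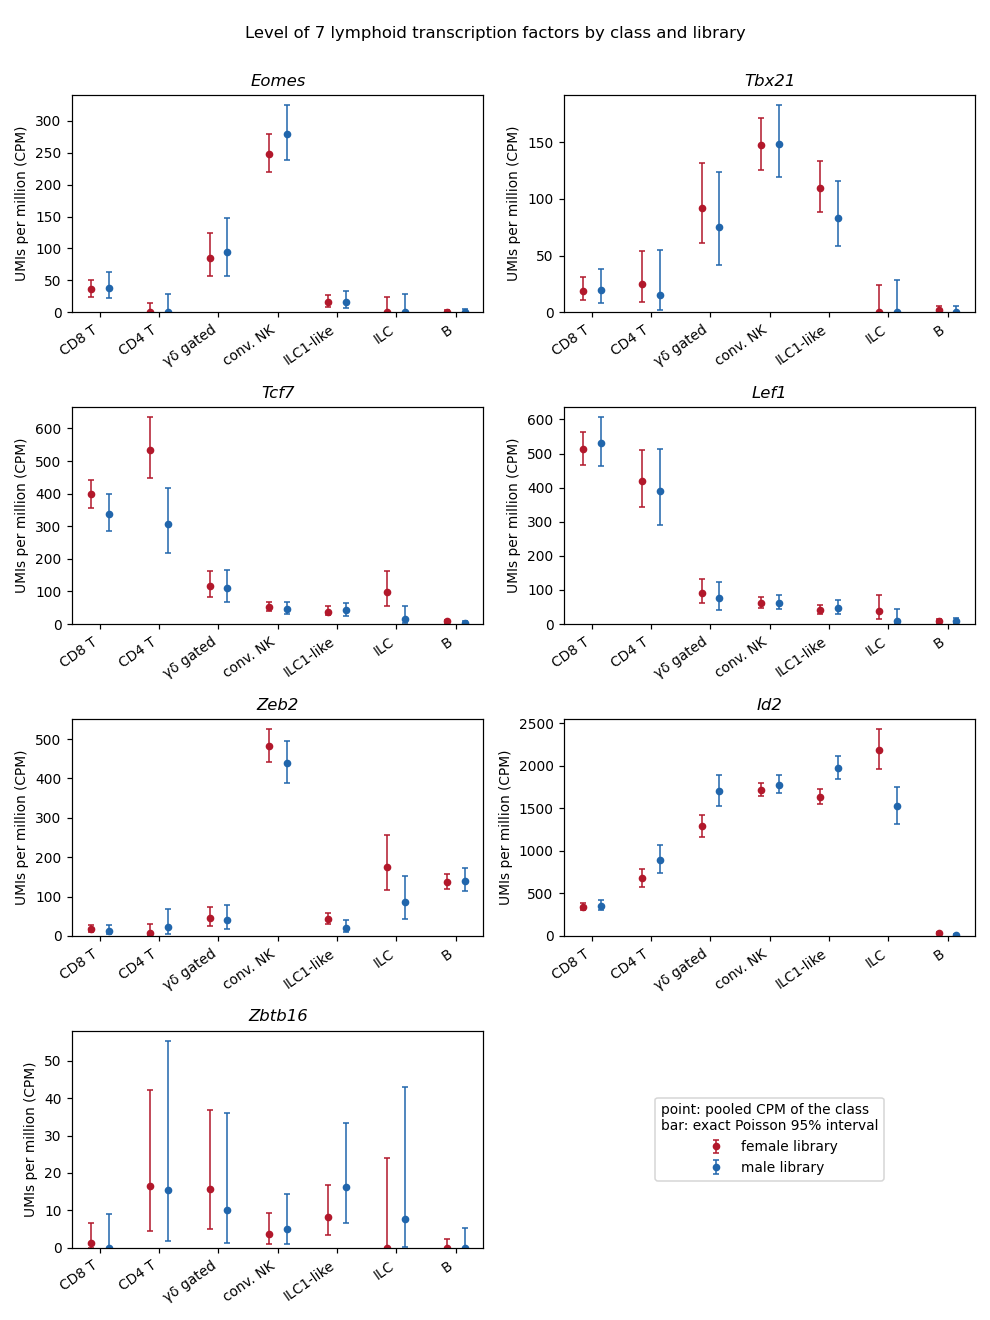
Level of each of the 7 factors in each of the 7 gated classes, in CPM on a linear axis of its own for each gene, with 1 point per library (female and male) and bars for the exact Poisson 95% interval. Eomes and Zeb2 are highest in conventional NK cells, Tcf7 and Lef1 in CD8 and CD4 T cells, Id2 is near 0 only in B cells, and Zbtb16 reaches at most 16.4 CPM in any class.

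The comparison of conventional with ILC1-like NK cells asks which of the factors differ between NK cells that carry the receptors of circulating NK cells and those that carry receptors of tissue-resident ones. Eomes and Zeb2 were the only members past 2-fold, out of 7 with at least 20 UMIs. A gene counted as past 2-fold where the difference in log2(CPM + 10) was at least 1 in size, with the same sign in both libraries. Of all 8553 genes with at least 20 UMIs, 2.46% passed. Eomes was 15.3-fold higher in conventional NK cells of the female library (95% interval 8.95 to 28.3) and 17.2-fold higher in those of the male library (8.16 to 43.4), with log2 differences of 3.30 and 3.46. Zeb2 had 483 CPM (443 to 526) and 439 CPM (388 to 495) in conventional NK cells against 41.8 CPM (29.3 to 57.9) and 20.9 CPM (9.55 to 39.6) in ILC1-like NK cells, a ratio of 11.5 (8.23 to 16.7) and 21.0 (10.9 to 46.5). The intervals of the summed levels did not overlap for either gene in either library, although single cells did, since 4.71% and 3.66% of ILC1-like NK cells had a UMI of Eomes and 11.5% and 9.76% one of Zeb2.

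Tbx21 differed far less between the NK groups, by a ratio of 1.35 (1.04 to 1.76) and 1.78 (1.2 to 2.7). Tcf7 had 52.5 and 46.2 CPM in conventional against 38.4 and 41.8 CPM in ILC1-like NK cells, and Lef1 had 61.5 and 62.8 against 40.7 and 46.4 CPM, with ratio intervals that held 1 in both libraries. Id2 was within 1.05-fold (0.981 to 1.13) in the female library and at a ratio of 0.900 (0.822 to 0.986) in the male library. Zbtb16 had between 3 and 7 UMIs in each NK group and library, too few for an order. The members' median difference was 0.43 on the log2 scale against 0.01 over all genes.

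Of 37 other lymphoid transcription factors put on a list, 28 were measured well enough in the NK comparison, and 3 were higher and 7 lower in conventional NK cells. The largest differences were those of Klf2, a factor of lymphocyte recirculation (log2 difference 3.34 and 3.08), and Irf8 (2.30 and 1.94), both higher in conventional NK cells, and of Rora (-1.99 and -2.81), Ikzf2 (-2.27 and -2.37), Ahr (-2.00 and -1.50) and Maf (-2.02 and -1.10), higher in ILC1-like NK cells. NK cells with receptors of both kinds or of neither, 188 and 71 in number, had Eomes at 150 and 83.7 CPM and Zeb2 at 99.3 and 49.7 CPM. Both lay between the divided groups in both libraries.

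**Figure D2:**
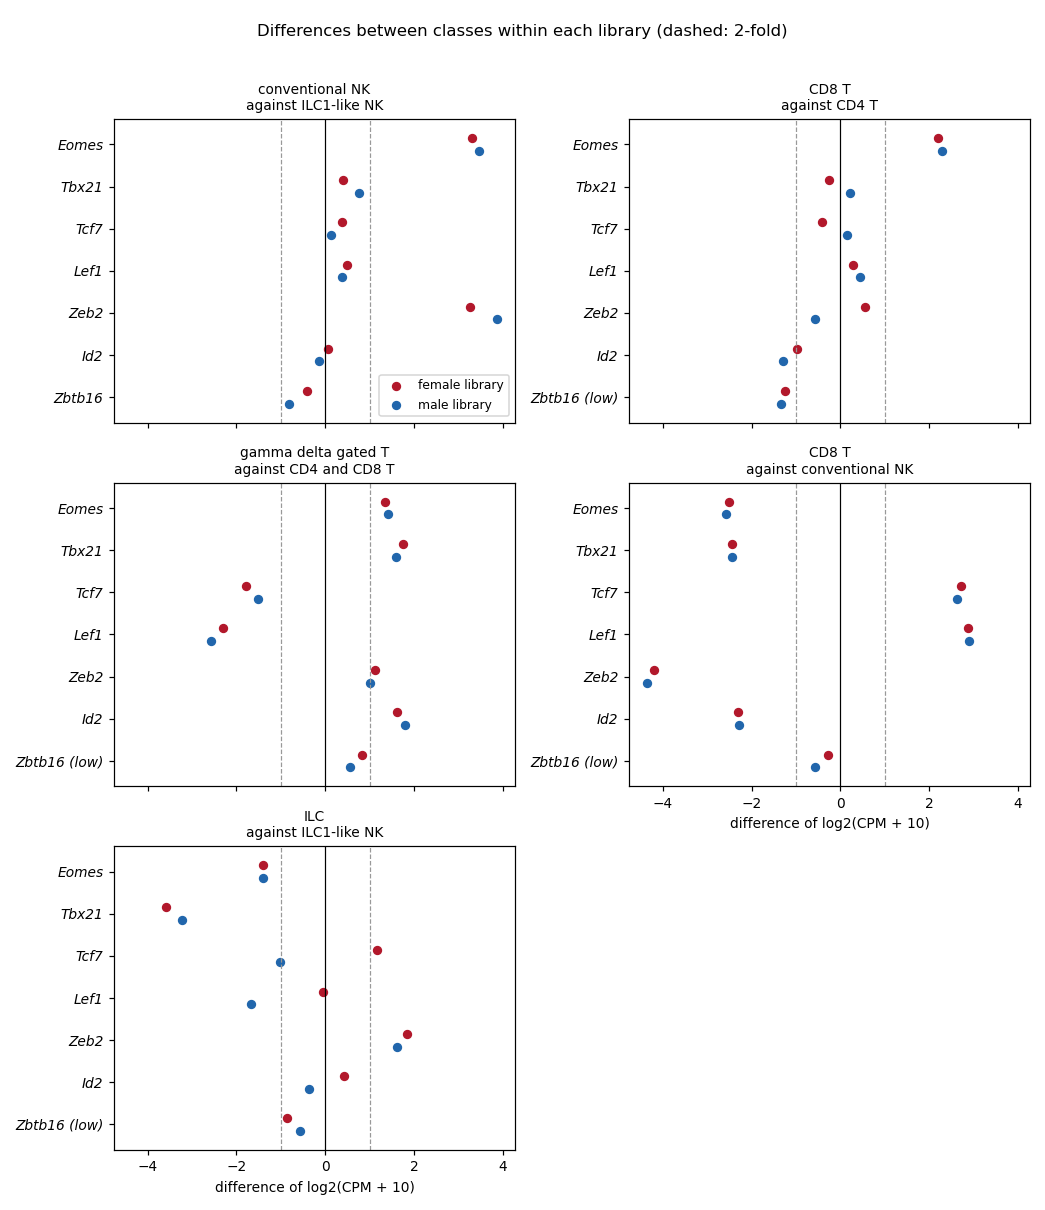
Difference in log2(CPM + 10) of each factor in 5 comparisons between classes, with the female and the male library as separate points, the 2-fold limits as dashed lines and genes with too few UMIs to be tested marked as low. Eomes and Zeb2 lie beyond 3 in conventional against ILC1-like NK cells in both libraries, and Tcf7 and Lef1 are the only factors above the upper limit in CD8 T against conventional NK cells.

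Tcf7 and Lef1 were highest in the CD8 and CD4 T cell gates, which leave out cells with an NK receptor UMI. In CD8 T cells Tcf7 had 398 CPM (357 to 443) in the female and 338 CPM (285 to 399) in the male library, and in CD4 T cells 535 CPM (447 to 635) and 306 CPM (219 to 417). Lef1 had 513 CPM (466 to 564) and 532 CPM (464 to 607) in CD8 T cells, and 419 CPM (342 to 509) and 391 CPM (291 to 513) in CD4 T cells. In CD4 T cells 5 cells held 30.4% (female) and 66.7% (male) of the Lef1 UMIs, and 34.6% and 47.5% of the Tcf7 UMIs. The other 5 classes lay below both T cell classes, beyond the intervals. So did alpha beta gated T cells with an NK receptor UMI, a group outside the 7 classes, in which even the cells with both Cd3e and Trac had Tcf7 at 107 and 90.7 CPM and Lef1 at 152 and 138 CPM. Gamma delta gated cells had Tcf7 at 117 and 110 CPM and Lef1 at 91.7 and 74.9 CPM, and both NK groups lay between 38.4 and 62.8 CPM for either gene. In ILCs Tcf7 had 15 UMIs in the female library (97.8 CPM, interval 54.8 to 161) and 2 in the male library (15.5 CPM, 1.87 to 55.8). B cells had at most 8.70 CPM of either gene.

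In shares of cells, Lef1 was found in 81.4% and 76.9% of CD8 T cells and in 61.7% and 47.1% of CD4 T cells, whose median depth was lower (3084.5 and 2933 UMIs against 4525 and 4208). At 1000 UMIs per cell these shares were 39.5% and 33.0% in CD8 T cells against 40.0% and 26.5% in CD4 T cells, so the gap in the female library was not there at equal depth. For Tcf7 the thinned shares were 30.2% and 30.8% in CD8 T cells and 36.7% and 29.4% in CD4 T cells.

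Between CD8 and CD4 T cells, 1 of 6 members tested was past 2-fold, while 1.64% of all 6570 genes were. That gene was Eomes, for which CD8 T cells had 30 and 16 UMIs and CD4 T cells none. With 3 UMIs per library as the limit that a count of 0 allows, CD8 T cells stood at least 2.91-fold higher (female) and at least 1.68-fold higher (male). The exact interval of the ratio, which adds the counting error of CD8 T cells, began lower, at 2.22 and 1.22. Id2 came close, with 341 CPM (302 to 383) and 355 CPM (300 to 417) in CD8 T cells and 678 CPM (579 to 790) and 888 CPM (734 to 1065) in CD4 T cells. Its ratio was 0.502 (0.413 to 0.612) and 0.400 (0.311 to 0.515), and its log2 difference of -0.97 in the female library fell just short of the limit, while the median gene stood at -0.13. In CD4 T cells, however, 5 cells held 62.4% and 58.6% of the Id2 UMIs, against 30.5% and 29.3% in CD8 T cells, so the difference in level rests largely on few cells. Tcf7 was lower in CD8 T cells of the female library (ratio 0.745, interval 0.606 to 0.919) and did not differ beyond counting error in the male library (1.10, 0.772 to 1.61). Of 22 related factors none was higher and 3 were lower in CD8 T cells, namely Maf (-2.81 and -3.61), Zbtb7b, the factor of the CD4 lineage choice (-1.51 and -2.26), and Gata3 (-1.58 and -1.07). The Zbtb7b values rest on few UMIs, with 3 and 2 in CD8 T cells against 7 and 8 in CD4 T cells.

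CD8 T cells set against conventional NK cells gave the widest division. All 6 members tested were past 2-fold, where 7.95% of 8431 genes were and the median gene stood at -0.30 on the log2 scale. Tcf7 was 7.59-fold (5.73 to 10.2) and 7.31-fold (4.85 to 11.4) higher in CD8 T cells, and Lef1 8.34-fold (6.44 to 10.9) and 8.47-fold (5.98 to 12.3) higher. The other 4 were higher in conventional NK cells, with log2 differences of -2.50 and -2.57 for Eomes, -2.43 and -2.44 for Tbx21, -4.20 and -4.35 for Zeb2, and -2.30 and -2.29 for Id2. Every one of the 6 kept its direction relative to the median gene. The CD8 gate leaves out cells with an NK receptor UMI, however, while the NK gate needs at least 2. Outside both gates, alpha beta gated T cells with NK receptor UMIs, Cd3e and Trac had Tbx21 at 73.2 CPM (58.7 to 90.3) and 102 CPM (76.7 to 133). Their Eomes level was 16.8 and 9.45 CPM, and their Zeb2 level 53.9 and 15.1 CPM. Among 29 related factors 3 were higher and 6 lower in CD8 T cells, led by Irf8 (-4.99 and -4.60), the T cell factor Bcl11b (3.70 and 3.60), Tcf4 (-2.60 and -2.58), the NK cell factor Nfil3 (-1.55 in the female library, and 0 UMIs against 22 in the male one), Id3 (1.27 in the female library, and 17 UMIs against 0 in the male one) and Prdm1 (-1.61 and -1.39).

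The gamma delta gated cells, set against CD4 and CD8 T cells together, had all 6 members tested past 2-fold, where 3.95% of 7614 genes were and the median gene stood at 0.17. Tcf7 and Lef1 were lower, at ratios of 0.273 (0.190 to 0.382) and 0.332 (0.203 to 0.519) for Tcf7 and of 0.186 (0.124 to 0.271) and 0.151 (0.0831 to 0.253) for Lef1. Id2 was higher, with 1290 and 1698 CPM against 417 and 483 CPM. Eomes (ratio 3.07 and 3.23), Tbx21 (4.50 and 4.08) and Zeb2 (2.99 and 2.72) were higher too, though the Zeb2 interval in the male library ran from 0.890 to 8.31 and held 1. The Zeb2 level in gamma delta gated cells came from 14 and 8 UMIs, of which 5 cells held 85.7% and 87.5%. The 2 related factors that were higher were Ahr (2.10 and 2.25) and Irf8 (1.08 and 2.38), and Klf2 (-2.24 and -2.63) and Foxo1 (-1.22 and -1.61) were lower, out of 27.

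NK receptors moved with this comparison by construction, because the CD4 and CD8 gates leave out cells with an NK receptor UMI and the gamma delta gate does not. At least 2 UMIs of the 3 NK receptor genes were found in 71.7% and 61.0% of gamma delta gated cells, and Cd3e, a T cell receptor subunit, was found in 68.3% and 73.2% of them. A share of conventional NK RNA as large as that of Gzma and Prf1 would bring 58.6 and 51.9 CPM of Eomes, 34.8 and 27.6 CPM of Tbx21 and 114 and 81.7 CPM of Zeb2, against 85.3 and 94.9, 91.7 and 74.9, and 44.2 and 40.0 CPM measured. In the 41 and 30 gamma delta gated cells with Cd3e, a group chosen after the data were seen, 3 of the 6 members were past 2-fold, namely Tcf7, Lef1 and Id2. The 3.95% of all genes given above belongs to the full gate, and no such share is given for this smaller group. Eomes had 74.3 CPM (40.6 to 125) and 30.7 CPM (8.36 to 78.5) there, and Tbx21 117 CPM (73.2 to 177) and 46.0 CPM (16.9 to 100). The part of NK cells or of NK RNA in the Eomes, Tbx21 and Zeb2 levels was not tested.

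Outside the T and NK cells, Zeb2 was found in B cells and in the ILC gate. B cells had 137 CPM (120 to 156) and 141 CPM (114 to 172) and ILCs 176 CPM (116 to 256) and 85.0 CPM (42.4 to 152), while CD8 T cells had 16.7 and 12.1 CPM and CD4 T cells 8.22 and 23.0 CPM. Conventional NK cells stood apart from the next class in both libraries, which was ILCs in the female library and B cells in the male one. Myeloid cells of the same libraries had 527 and 553 CPM. In ILCs, 5 cells held 85.2% of the Zeb2 UMIs in the female library and 100% in the male one. A list of 6 myeloid marker genes, all 6 with a UMI in both libraries, came to 1891 and 3200 CPM in ILCs and to 294 to 758 CPM in the other 6 classes. Scaled by those markers, myeloid RNA would bring 19.0 and 47.4 CPM of Zeb2 to ILCs and 7.62 and 9.90 CPM to B cells. In the female library Cma1, a mast cell protease gene that conventional NK cells also had at 222 CPM, stood at 554 CPM in ILCs (85 UMIs, in 5% of cells), and it was at 0 in ILCs of the male library. The part of myeloid or mast cell RNA in the ILC level was not tested.

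Against ILC1-like NK cells, ILCs had 3 of 6 members past 2-fold, where 8.06% of 7262 genes were. Tbx21, with 94 and 36 UMIs in ILC1-like NK cells and 0 in ILCs, was at least 5.58-fold and at least 3.60-fold lower in ILCs by the same limit of 3 UMIs. With the counting error of both classes, the ratio could be as high as 0.225 and 0.359. Zeb2 was higher in ILCs, at 4.21-fold (2.46 to 7.13) and 4.07-fold (1.53 to 11.1), with the few cells and the myeloid and mast cell markers described above. Eomes, 0 in ILCs and 16.3 and 16.2 CPM in ILC1-like NK cells, also passed, but its ratio could be as high as 1.69 and 2.31, so at this depth no difference was detectable. Tcf7, Lef1 and Id2 did not pass. Gata3, the factor of type 2 innate lymphoid cells, was higher in ILCs (2.47 and 2.13), as was Bcl11b (2.20 and 1.13), and 7 of 26 related factors passed as lower, among them Ahr (-2.72 and -1.42) and Tox (-1.18 and -2.08). Irf8 was among them too, with 5 and 0 UMIs in ILCs against 93 and 49 in ILC1-like NK cells. Zfp683 passed with 0 UMIs in ILCs and 14 and 10 in ILC1-like NK cells. In the female library its 16.3 CPM in ILC1-like NK cells lay below the limit of 19.6 CPM for ILCs. In the male library it stood barely above that limit, at 23.20 against 23.19 CPM, so no clear difference was detectable for it either.

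Id2 was high in the NK, ILC and gamma delta gates and lower in the CD4, CD8 and B cell gates. ILCs had 2185 CPM (1957 to 2432) and 1523 CPM (1317 to 1751), conventional NK cells 1719 and 1779 CPM, ILC1-like NK cells 1636 and 1977 CPM, and gamma delta gated cells 1290 and 1698 CPM. Below these came CD4 T cells, then CD8 T cells, then B cells with 39.0 CPM (30.0 to 49.8) and 11.6 CPM (5.01 to 22.9), each apart from the next in both libraries, with the CD4 level carried largely by few cells as given above. Among the 4 upper classes the order changed from library to library. The low level was not shared by all alpha beta T cells, since those with an NK receptor UMI, Cd3e and Trac, which the CD4 and CD8 gates leave out, had 1418 and 1849 CPM. At 1000 UMIs per cell, Id2 was found in 71.7% and 77.0% of conventional NK cells, 76.2% and 84.1% of ILC1-like NK cells, 71.4% and 79.5% of ILCs, 30.0% and 44.1% of CD4 T cells, 20.3% and 26.4% of CD8 T cells and 2.54% and 0.813% of B cells. In B cells of the female library 5 cells held 67.2% of the Id2 UMIs, and in the male library 8 cells held 1 UMI each.

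Zbtb16 was scarce. In the 7 classes it reached at most 16.4 CPM, in CD4 T cells of the female library, from 4 UMIs, and no neighbours in the order differed beyond their intervals. A further group, alpha beta gated T cells with an NK receptor UMI (350 and 158 cells), had 22.2 CPM (15.8 to 30.2) and 27.2 CPM (17.2 to 40.8). Within it, cells with UMIs of both Cd3e and Trac had 28.6 CPM (19.8 to 40.0) and 41.6 CPM (26.1 to 63.0), from 34 and 22 UMIs in 216 and 99 cells. The 90 and 43 cells with neither had 4.83 CPM (0.585 to 17.5) and 3.86 CPM (0.0978 to 21.5). These last cells went against the group's name, with 5 T cell genes at 74.9 and 69.5 CPM against 634 and 629 CPM in the cells with both, and 5 NK genes at 22887 and 21139 against 8570 and 9304 CPM. In the same cells with neither, Eomes was higher (65.3 and 120 CPM) than in those with both (16.8 and 9.45 CPM), and the Zbtb16 and the Eomes intervals were apart in both libraries. This division by Cd3e and Trac was chosen after the data were seen. Zbtb16 was found in 11.6% and 18.2% of the cells with both receptor genes and, for comparison, in 4.97% and 3.92% of myeloid cells, at 11.7 and 8.90 CPM.

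**Figure D3:**
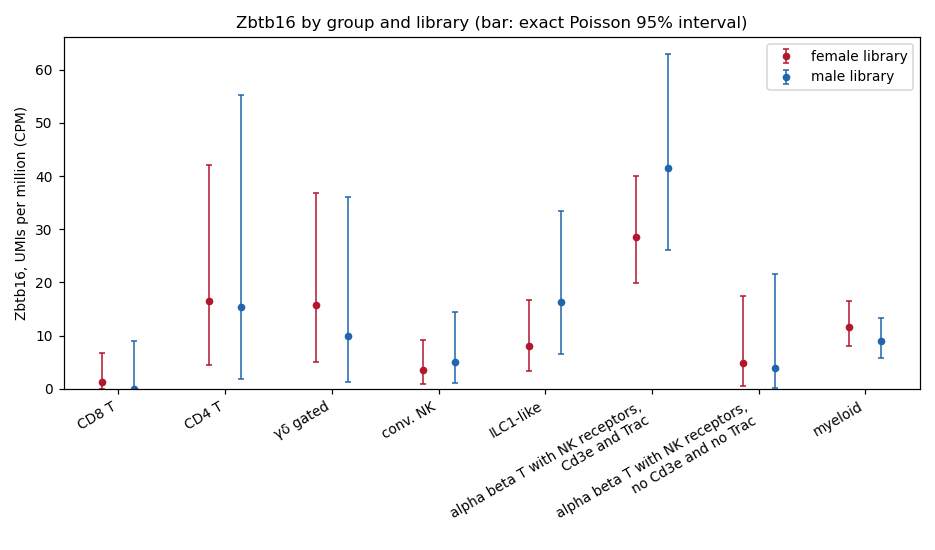
Level of Zbtb16 in CPM, on a linear axis, in 5 of the classes, in alpha beta T cells with NK receptors divided by Cd3e and Trac, and in myeloid cells, by library, with exact Poisson 95% intervals. The highest values, 28.6 and 41.6 CPM, are those of alpha beta T cells with NK receptors that hold both Cd3e and Trac.

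Detection in the same cells was then counted, over all UMIs and with no thinning unless stated. Of 298 conventional NK cells in the female library, 59 had both Eomes and Tbx21, 103 Eomes alone, 60 Tbx21 alone and 76 neither. In the male library these were 35, 49, 24 and 28 of 136 cells. ILC1-like NK cells were divided otherwise, with 5 and 0 cells holding both, 4 and 3 Eomes alone, 63 and 28 Tbx21 alone, and 119 and 51 neither. Zeb2 was found in 66.0% and 64.3% of the conventional NK cells with Eomes and in 65.4% and 71.2% of the rest. At 1000 UMIs per cell it was found in 38.9% and 38.9% of those with Eomes and in 35.7% and 28.3% of the rest, so the direction in the male library turned with the depth and no order is read from it.

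Tcf7 and Lef1 were found together in CD8 T cells, Lef1 in 88.0% and 91.4% of cells with Tcf7 and in 63.8% and 51.5% of the rest. With cells thinned to 1000 UMIs the gap was smaller, with 46.2% and 39.3% against 36.7% and 30.2%. Id2 was found less often beside Lef1. It was present in 33.6% and 31.4% of CD8 T cells with Lef1 against 71.9% and 81.0% of the rest, and in 35.1% and 37.5% of CD4 T cells with Lef1 against 69.6% and 77.8% of the rest. At 1000 UMIs per cell the CD8 shares were 8.82% and 10.0% against 27.9% and 34.4%. In conventional NK cells, Id2 was found in 94.9% and 93.3% of cells with Lef1 and in 93.7% and 98.1% of the rest. Since deeper cells show more genes, these shares describe the libraries and carry no test.

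**Figure D4:**
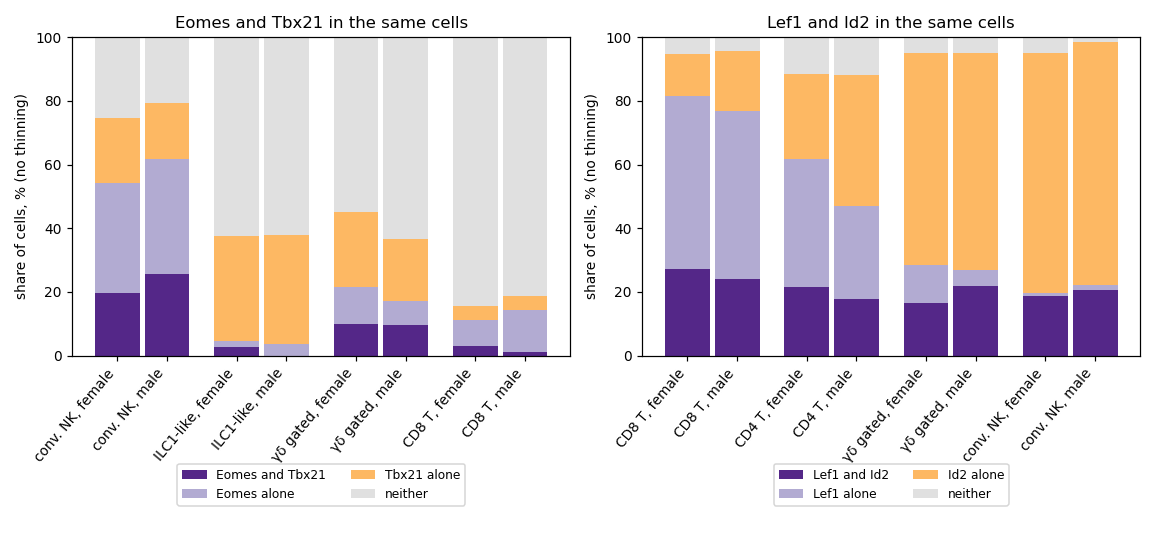
Stacked bars of the share of cells, in percent without thinning, with UMIs of both factors, of 1 of them alone or of neither, for Eomes with Tbx21 (left) and Lef1 with Id2 (right), by class and library. Cells with Eomes make up a large part of conventional NK cells and a thin band of ILC1-like NK cells, and most T cells with Lef1 lack Id2 in the CD8 and CD4 classes.

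Across the 14 values given by 7 classes in 2 libraries, which share their libraries and depth, the pattern of log2(CPM + 10) was compared between genes as a description. Tcf7 and Lef1 were the most alike pair of members (Pearson's r 0.96), followed by Eomes and Tbx21 (0.81), and Tcf7 and Lef1 ran against Zeb2 (-0.63 and -0.63). Out of 8725 genes with at least 50 UMIs, those most like each member were Ccdc88c, G0s2 and Baiap3 for Eomes (0.949, 0.945 and 0.928), Samd3, Fasl and Xcl1 for Tbx21 (0.985, 0.975 and 0.966), 5830468F06Rik, Gm12840 and Smc4 for Tcf7 (0.953, 0.947 and 0.943) and Rnf125, Ms4a6b and 5830468F06Rik for Lef1 (0.950, 0.949 and 0.929). For Zeb2, Cyba and Reep5 were among the closest (0.874 and 0.864), for Id2 they were H2-K1, Ccnd2 and Rnf166 (0.984, 0.966 and 0.962), and for Zbtb16, with few UMIs, they were Hmgb1, Gpbp1l1 and Accs (0.884, 0.881 and 0.871). Fasl and Xcl1 encode a death ligand and a chemokine of cytotoxic lymphocytes.

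Female and male libraries were compared for the 7 factors in each class. Of 30 values with at least 20 UMIs over both libraries, 1 was past 2-fold, that of Id2 in B cells (ratio of female to male 3.36, interval 1.61 to 8.12, from 64 and 8 UMIs). That value rests largely on few cells, since 5 B cells of the female library held 67.2% of its 64 UMIs. Of all genes, 1.7% were past 2-fold between the libraries in CD8 T cells, 6.99% in CD4 T cells, 5.02% in gamma delta gated cells, 0.731% in conventional NK cells, 1.51% in ILC1-like NK cells, 7.12% in ILCs and 0.72% in B cells, so 1 of 30 lies within what other genes gave. Zeb2 had a ratio of 2.00 (0.947 to 4.73) in ILC1-like NK cells and 2.07 (0.994 to 4.63) in ILCs, with intervals that held 1. In 7 of 49 pairs of values the interval of the ratio left out 1, and 5 of these were values of Id2. Besides B cells, Id2 was at a ratio of 0.764 (0.599 to 0.977) in CD4 T cells, 0.759 (0.656 to 0.879) in gamma delta gated cells, 0.827 (0.759 to 0.902) in ILC1-like NK cells and 1.43 (1.2 to 1.72) in ILCs. Tcf7 was higher in the female library in CD4 T cells (1.75, 1.22 to 2.55) and in ILCs (6.33, 1.47 to 57.0), the latter from 17 UMIs in all. Eomes in conventional NK cells differed by less than counting error, with 249 against 279 CPM. None of these can be assigned to sex, since each library is a single sample.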

How the data were processed

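Live CD45+ cells of adrenal glands were sorted, and the authors prepared 1 Chromium Single Cell 3′ v3.1 library per sex. The deposited files hold whole UMI counts per gene and barcode, which the authors made with Cell Ranger 4.0.0 on mm10, and per the labels barcodes judged to be noise were removed with DropletUtils, though whether before or after deposit is not stated. The files hold 3963 (female) and 2685 (male) barcodes with 16218309 and 9512670 UMIs, and 2 barcodes occur in both.

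Cells with at least 200 genes and at most 15% mitochondrial UMIs were kept. Scrublet's automatic threshold, run in scanpy 1.11.5, marked only 1 and 8 cells, so the highest scores were removed at a fixed 0.8% per 1000 barcodes (123 and 53 cells). This left 3694 and 2449 cells. The study states a mitochondrial ceiling of 1.2%, whose scale is unclear. Read as a percent of UMIs it would leave under 20 cells in every group, although the study kept most of its cells, so it is unlikely to be the same quantity and was not used.

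Cells were gated on raw UMIs of surface receptor genes. In brief, B cells needed 2 UMIs of B cell receptor components and markers, T cells 2 of CD3 genes, gamma delta cells 2 of delta and gamma constant genes with more of them than of Trac, NK cells 2 of Ncr1, Klrb1c and Klre1, and ILCs 2 of Il7r, Il1rl1, Il17rb, Il2ra and Icos. ILCs also had no UMI of Cd3e, Trac or the NK genes, and at most 1 of the CD3 genes and 1 of the B cell genes. NK cells were divided by Itga1, Cd200r1, Tnfsf10, Il7r and Cxcr6 against Itga2, Itgam, Klra4, Klra7, Klra8 and S1pr5. UMIs were summed over each class and library. Differences between classes were taken as log2(CPM + 10) within each library over all genes with at least 20 UMIs, and shares of cells were also computed after thinning each cell to 1000 UMIs, leaving out shallower cells. With 1 library per sex no p-value was computed. Ratios have exact conditional binomial intervals and shares Clopper-Pearson intervals, at a level of 95%. A count of 0 was read as at most 3 UMIs. Fewer transcripts per cell and fewer expressing cells cannot be told apart in a summed level. Levels of different genes were not compared, because 3′ counts depend on each gene's end.

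All 7 factors are named in every class. Of the 37 related factors, those past 2-fold in both libraries were named, at most 6 per comparison, and for each member the 3 genes with the highest correlation. Some items are not reported here. The members, gates and lists were chosen with earlier results of these data known. The procedure was tested on simulated counts. Python 3.11.15, numpy 2.4.6, scipy 1.17.1, pandas 2.3.3 and matplotlib 3.10.9 were used. Alternatives varied the filters, gates, pseudocount, normalization and thinning depth.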

Additional observations from a re-analysis of the deposited data

Results flagged for a closer look

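In 6 differences between classes the female and the male library had opposite signs, given here as differences in log2(CPM + 10), female then male. With 1 library per sex, none of these differences between the libraries was tested. Between conventional and ILC1-like NK cells, Id2 stood at 0.072 and -0.15. Between CD8 and CD4 T cells, Tbx21 stood at -0.25 and 0.21, Tcf7 at -0.42 and 0.14, and Zeb2 at 0.55 and -0.58. Between ILCs and ILC1-like NK cells, Tcf7 stood at 1.16 and -1.02 and Id2 at 0.42 and -0.37. For Tcf7 in ILCs the counts were 15 and 2 UMIs, in 9 and 2 cells.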

How the results depend on the processing

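The counts of members past 2-fold in conventional against ILC1-like NK cells (2) and in CD8 T against conventional NK cells (6) did not move by more than 1.5 times under any setting run. For CD8 against CD4 T cells, 1 as reported, the count was 2 with a mitochondrial ceiling of 5%, 2 with CPM averaged over cells, 0 with a pseudocount of 50 CPM and 2 with no filter on low genes. For gamma delta gated cells it fell from 6 to 3 with a pseudocount of 50 and to 3 in cells with Cd3e, the latter chosen after seeing the data. The shares over all genes given above belong to the reported settings only. For ILCs against ILC1-like NK cells it fell from 3 to 1 with a pseudocount of 50. Between the sexes, 1 as reported, it was 2 without doublet removal, 0 with stricter and 0 with looser gates, 2 with CPM averaged over cells, 2 with a pseudocount of 2, 0 with a pseudocount of 50 and 3 with no filter. A larger pseudocount shrinks the differences of low genes by construction, and for the other settings the cause was not tested. No difference of a called gene changed its sign, while 14 of the differences no longer passed 2-fold under a setting, 2 came to pass and 293 stayed on their side. Of the levels in CPM, 30 moved beyond their interval and 684 did not. Shares of cells with a UMI depend on the thinning depth by construction, and 125 moved beyond their interval and 169 did not. A ceiling of 1.2%, read as a percent of UMIs, which may not be the scale the study meant, left too few cells to run, as did gamma delta cells with Cd3e and under 2 NK receptor UMIs (17 and 15 cells). No paired analysis was possible because each sex has 1 library. Depth limits every value under about 3 UMIs per class and library, which covers most values of Zbtb16.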
